A study of Mus musculus with 15 samples.

Results

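Tumours grown as lung metastases in mice on a methionine-free diet were set against tumours from mice on a methionine-enriched diet. Metastases of B16-F10.1, a pigmented mouse melanoma line, were sequenced as total RNA, and the comparison takes the 9 libraries of these diets out of 15 in the series. The deficient group (n = 3) ate a diet with 0% methionine and the supplemented group (n = 6) a diet with 300%. All hosts were male C57BL/6J mice that received 100000 tumour cells through the tail vein at 8 weeks of age, with 21 days for metastases to form and then 2 weeks of diet. The series' other libraries come from a restricted diet of 25% (n = 3) and an adequate diet (n = 3). Their values are given for orientation, but these libraries also entered the fit. Its filter, scaling and estimate of spread, and so every SE and p-value of edgeR's test, depend on them too. The series' design text, which gives these times, does not mention the supplemented diet, which is known from the sample labels. A single tumour line was used, the mice were of the strain the line comes from, and the labels leave unsaid whether the libraries are from different mice, so the p-values given cover only the spread between these libraries, which may be technical.

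Methionine is an essential amino acid that the cell joins to the adenosine of ATP to make S-adenosylmethionine, the methyl donor for DNA, RNA, histones and small molecules. The spent donor is broken down to homocysteine, which is either methylated back to methionine or passed to cysteine by transsulfuration. When an amino acid runs short, uncharged transfer RNA activates the kinase GCN2 and the transcription factor ATF4 is made, which induces genes such as Asns and Trib3.

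Libraries held 13714670 to 29994264 counts in the deficient group and 13107679 to 26362706 in the supplemented group. The melanocyte genes Tyr, Dct, Pmel, Mlana and Sox10 had at least 236.9 CPM in each of these 9 libraries, where CPM is the usual count per library size on edgeR's TMM scale. Normal lung tissue was present to very different degrees. Sftpc, which encodes surfactant protein C of alveolar type 2 cells, stood at 319.2, 37.27 and 2159 CPM in deficient replicates 1, 2 and 3, against 0.186 CPM at the lowest, 233.5 at the median and 628.6 at the highest in supplemented libraries. Deficient replicate 3 was the highest of the 9 libraries in 15 of 16 tested alveolar type 2 genes, 13 of 14 airway genes and 27 of 28 endothelial genes. Supplemented replicate 5 was the lowest in 14, 10 and 20 of them. It was also the highest in all 9 tested skeletal muscle genes, with 845.5 CPM of the muscle actin gene Acta1, against 0.3884 to 1.104 CPM in deficient libraries. List medians are therefore given with all libraries and again without deficient replicate 3 alone, without both of these libraries, or without another library. The fits given are not for every list those that moved the median most. How far tissue make-up accounts for any difference was not tested. In such bulk samples fewer cells of a type and less RNA per cell cannot be told apart.

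**Figure D1:**
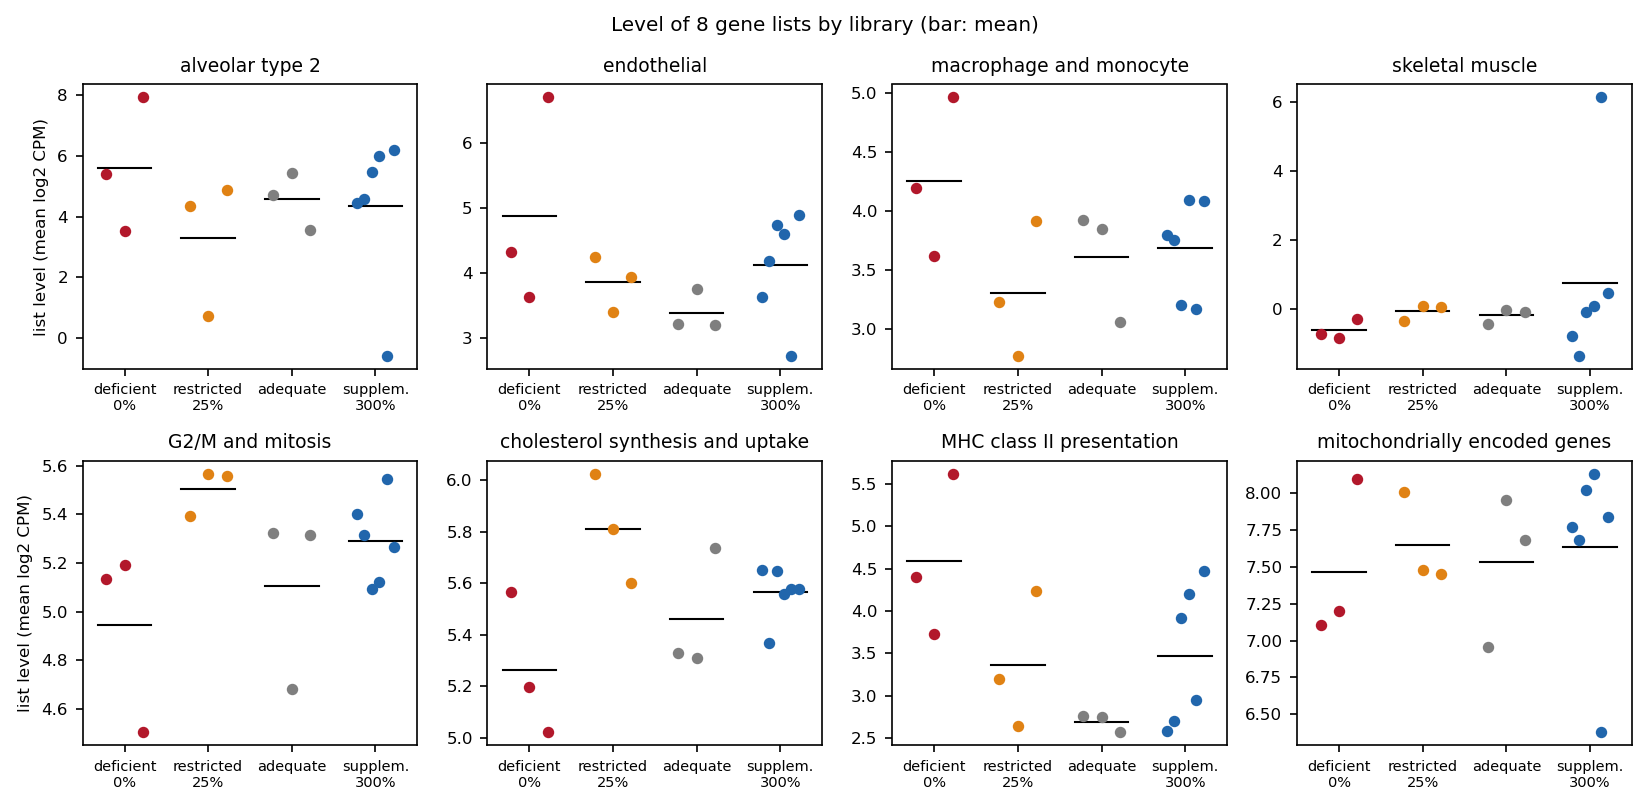
Mean log2 CPM of 8 gene lists (vertical axis) in every library of the 4 diets (horizontal axis), with a bar at each diet's mean. The alveolar type 2 and endothelial lists were highest in deficient replicate 3 and lowest in supplemented replicate 5, and the skeletal muscle list reached 6.13 in supplemented replicate 5 alone.

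No gene passed the test between the diets. edgeR's quasi-likelihood test on 16001 genes called 0 at an adjusted p under 0.05 (percent called 0.0), and the smallest adjusted p was 0.87. At an unadjusted p under 0.05 stood 872 genes (5.45%), of which 590 (3.69%) had a higher level and 282 (1.76%) a lower level in deficient libraries. DESeq2 and limma-voom also called 0 genes, with 1047 (6.54%) and 617 (3.86%) at an unadjusted p under 0.05. The count of 872 depended on single libraries: it was 399 without deficient replicate 3 and 1483 without deficient replicate 2. In simulated counts for these groups, edgeR recovered 26% of genes changed 2-fold and 73% of genes changed 4-fold. DESeq2 recovered 43% and 80%, with 27 unchanged genes called where edgeR called 5. The smaller change was thus missed more often than found in the simulation. Each gene was drawn independently there, so shifts that many genes share in 1 library, as from lung tissue, are left out. In the direction of the fitted difference the genes were nearly balanced, with 8398 (52.5%) above 0 and 7599 (47.5%) below, and a median log2 fold change of 0.02. Log2 fold changes are deficient minus supplemented throughout, and every value that follows belongs to a gene that did not pass the test.

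The genes with the smallest unadjusted p on the low side were led by Myc. Myc, a transcription factor that drives growth and ribosome synthesis, had 35.7, 46.15 and 38.97 CPM in deficient libraries, against 48.74 CPM at the lowest, 69.63 at the median and 74.32 at the highest in supplemented libraries. The groups did not overlap, and Myc averaged 40.27 ± 5.35 CPM (SD, n = 3) in deficient and 65.5 ± 10.3 CPM (SD, n = 6) in supplemented libraries. Its log2 fold change was -0.70 (SE 0.155, edgeR adjusted p = 0.87), and between -0.81 and -0.63 when each of the 9 libraries was left out in turn. Myc averaged 84.7 CPM in restricted and 41.9 CPM in adequate libraries, so the deficient mean lay nearest to the adequate one.

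Other genes of this group have roles in membrane traffic, the cytoskeleton and the genome. Scamp3, a secretory carrier membrane protein, had 29.27, 26.24 and 26.54 CPM in deficient libraries, against 37.02, 41.64 and 57.47 CPM (lowest, median and highest) in supplemented libraries. Its groups did not overlap and its log2 fold change was -0.67 (SE 0.155). Diaph3, a formin that nucleates actin filaments, had 10.56, 13.49 and 13.30 CPM in deficient libraries, against 17.40, 20.38 and 25.91 CPM in supplemented libraries, again with no overlap, and a log2 fold change of -0.75 (SE 0.201). Slc31a1, the cell's copper importer, had 95.8, 68.17 and 85.77 CPM in deficient libraries, against 100.8, 126.1 and 138.8 CPM in supplemented libraries. Clybl, a mitochondrial lyase, had 6.85, 7.374 and 6.551 CPM, against 9.652, 11.71 and 14.9 CPM. The deficient libraries of both genes were all below the supplemented ones, and the log2 fold changes were -0.56 (SE 0.156) for Slc31a1 and -0.79 (SE 0.232) for Clybl.

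Nsmce2, a SUMO ligase of the SMC5/6 complex, had a log2 fold change of -0.57 (SE 0.161), Dclre1b, a nuclease that protects telomeres, -0.90 (SE 0.260), and Klhl30, a kelch family gene, -0.59 (SE 0.178). Sap18b stood at 42.87, 43.29 and 41.33 CPM in deficient libraries, against 63.07, 70.65 and 86.83 CPM in supplemented libraries, a log2 fold change of -0.76 (SE 0.176). Its near namesake Sap18 had a log2 fold change of 0.12 (SE 0.311), and reads that fit both are divided by estimate, so the value of Sap18b is uncertain. Gm22133, a gene with no given name, had 4.131, 4.866 and 3.309 CPM in deficient libraries, against 6.622, 8.361 and 11.62 CPM in supplemented libraries. Its log2 fold change was -1.05 (SE 0.263). Per transcript length its mean level was 1177 TPM in deficient libraries, which at so low a CPM marks a very short transcript, so its value is uncertain. Gm20388 was at 0, 0 and 0.06754 CPM in deficient libraries and at 3.161 to 45.65 CPM in supplemented libraries; which overlapping genes could share its reads was not tested. Of the 12 genes of this group 10 had deficient libraries wholly below the supplemented ones, a pattern that 144 of 16001 genes had (0.9%). The choice by small p favours that pattern, so nothing is read from the share. All 12 kept a negative log2 fold change without deficient replicate 3 and supplemented replicate 5, and none of them was smaller in size by more than 1.5 times. That fit reuses libraries by which the genes were chosen, so nothing is read from this either.

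The 12 genes with the smallest p on the high side were mostly highest in the library rich in lung tissue. Deficient replicate 3 held the highest value in 10 of them. Sema3c, a secreted guidance factor, had 26.38, 57.84 and 122.4 CPM in deficient libraries, against 10.69, 16.15 and 34.06 CPM (lowest, median and highest) in supplemented libraries. Deficient replicate 1 lay inside the supplemented range, and the log2 fold change was 1.85 (SE 0.446), or 1.04 without deficient replicate 3 and supplemented replicate 5. Cxcl12, a chemokine of stromal cells, had 17.69, 31.55 and 138.2 CPM, against 12.40, 15.98 and 24.35 CPM, and its log2 fold change of 1.86 (SE 0.456) was 0.45 without these libraries. Edn1, which encodes the vessel-constricting peptide endothelin 1, had 2.613, 8.628 and 12.83 CPM, against 0.9387, 2.135 and 3.565 CPM, with a log2 fold change of 1.94 (SE 0.495), or 1.31 without them.

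Plcg2, a phospholipase of signalling in blood cells, stood at 30.65, 28.14 and 41.06 CPM in deficient libraries, against 14.80, 18.33 and 22.74 CPM in supplemented libraries. Its groups did not overlap, and the log2 fold change was 0.84 (SE 0.208), or 0.67 without deficient replicate 3 and supplemented replicate 5. Lcp2, an adaptor of the same signalling chain, had 10.03, 10.23 and 14.05 CPM, against 3.533, 5.163 and 8.232 CPM, again with no overlap and a log2 fold change of 1.06 (SE 0.278), or 0.79 without them. Nr1h3, the oxysterol receptor LXR alpha, had 5.226, 4.615 and 15.4 CPM, against 2.027, 3.348 and 3.729 CPM, and Smim1, a small membrane protein gene, 10.2, 7.173 and 19.32 CPM, against 2.107, 5.21 and 6.471 CPM. Both were without overlap, with log2 fold changes of 1.43 (SE 0.379) and 1.37 (SE 0.371) that were 0.62 and 0.74 without those 2 libraries.

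For Ogn, a matrix proteoglycan gene, the value rested on deficient replicate 3, which held 86.92 CPM, against 10.28 and 3.16 CPM in the other deficient libraries and 3.923 to 12.28 CPM in supplemented libraries. Its log2 fold change of 2.45 (SE 0.672) was 0.07 without deficient replicate 3 and supplemented replicate 5. Ighm, the heavy chain of IgM, had 2.18 (SE 0.599) and 0.76, and Pde5a, a cyclic GMP phosphodiesterase, 0.91 (SE 0.249) and 0.29. Nxt2, a factor of RNA export, and Usp11, a deubiquitinase, were instead highest in deficient replicate 2, at 30.65 and 38.38 CPM. The other deficient libraries had 14.23 and 15.2 CPM of Nxt2 and 16.6 and 18.3 CPM of Usp11, against at most 12.2 and 14.31 CPM in supplemented libraries. Without deficient replicate 2 the log2 fold changes were 0.53 for Nxt2 and 0.41 for Usp11, beside 0.98 and 0.90 with all libraries. Deficient libraries lay wholly above the supplemented ones in 6 of these 12 genes, and in 161 of 16001 genes (1.01%). The choice by small p favours this pattern too, so nothing is read from the share. Without deficient replicate 3 and supplemented replicate 5 all 12 stayed above 0, and 7 were smaller by more than 1.5 times. The genes were chosen with the libraries of that fit, so their sign there is not read either.

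**Figure D2:**
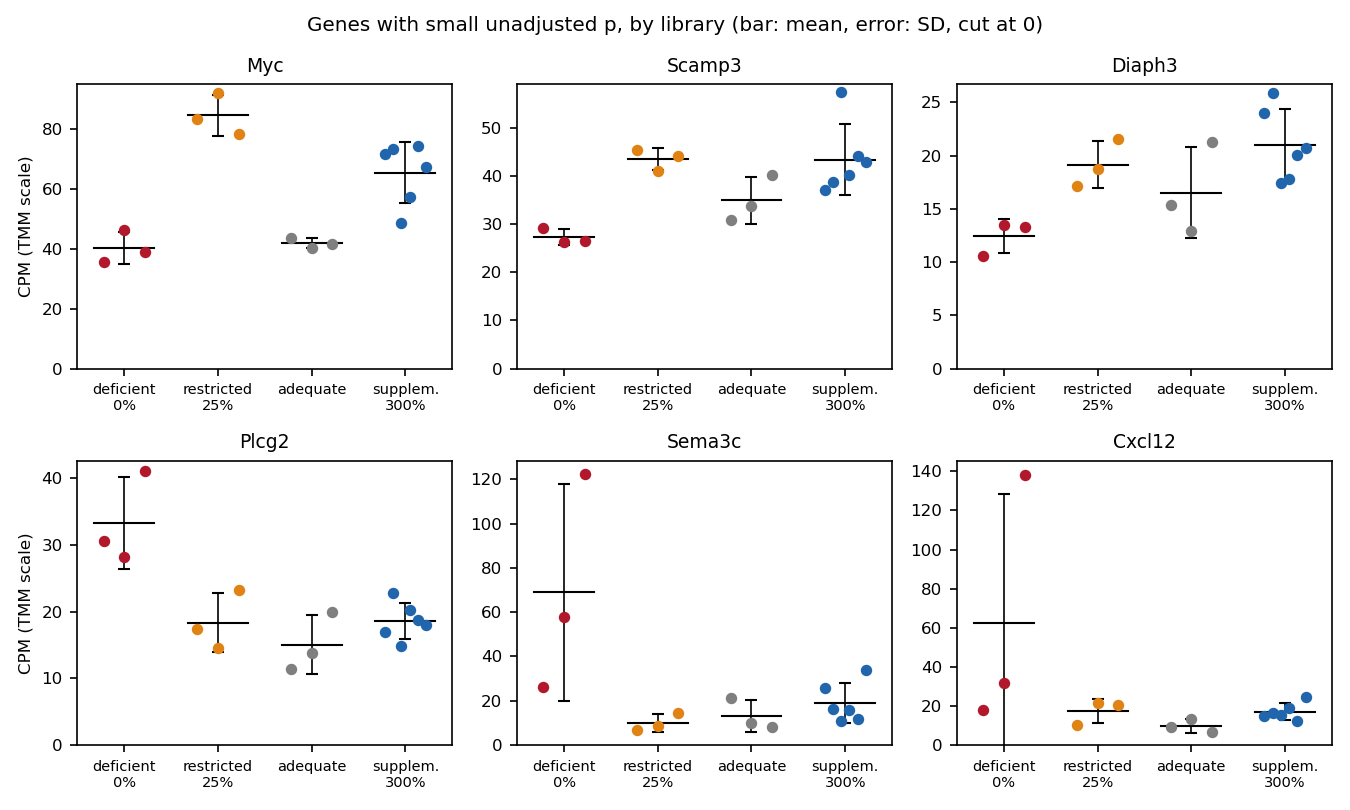
CPM of 6 genes (vertical axis) in every library of the 4 diets (horizontal axis), with the mean and SD of each diet. Myc, Scamp3 and Diaph3 were lower in all 3 deficient libraries than in any supplemented library, Plcg2 was higher, and Sema3c and Cxcl12 reached 122.4 and 138.2 CPM in deficient replicate 3.

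Genes that make and recycle S-adenosylmethionine had log2 fold changes on both sides of 0. Of 13 tested genes of the methionine cycle 9 had a log2 fold change above 0 and 4 below, with a median of 0.10 beside 0.02 over all genes, and 0 had an unadjusted p under 0.05. Without both libraries 7 of 13 lay above 0 (median 0.13). Mat2a, which makes S-adenosylmethionine outside the liver, had 43.68, 110.4 and 73.55 CPM in deficient libraries, against 70.18, 101.2 and 120.1 CPM in supplemented libraries. The groups overlapped, and the log2 fold change was -0.39 (SE 0.243, edgeR adjusted p = 0.89). Per transcript length its mean level was 13.11 TPM in deficient and 18.99 TPM in supplemented libraries, whereas its liver counterpart Mat1a stood at 0.423 TPM in deficient and 0.172 TPM in supplemented libraries. Mat2b, the regulatory subunit, had a log2 fold change of 0.17 (SE 0.172).

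Mtr, methionine synthase, had 14.83, 19.01 and 17.15 CPM in deficient libraries, against 9.707, 13.82 and 18.47 CPM in supplemented libraries, a log2 fold change of 0.29 (SE 0.222) with overlapping groups. Its reactivating enzyme Mtrr had 0.20 (SE 0.197) and Mmachc, which processes the cobalamin cofactor, 0.32 (SE 0.216). Ahcy, which hydrolyses S-adenosylhomocysteine, had 105.1, 122.4 and 72.27 CPM, against 66.99, 91.09 and 131.6 CPM, and a log2 fold change of 0.10 (SE 0.231) that was -0.07 without deficient replicate 2. Ahcyl1, a relative of Ahcy that regulates calcium release, had 48.76, 36.47 and 64.9 CPM, against 53.58, 62.28 and 69.46 CPM, and a log2 fold change of -0.32 (SE 0.172), or -0.57 without deficient replicate 3 and supplemented replicate 5.

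Transsulfuration genes, which lead from homocysteine to cysteine, had a median log2 fold change of 0.01, with 6 of 11 tested genes above 0 and 5 below. The median was -0.05 with 5 above 0 without both libraries, and 0.13 without deficient replicate 2. Cth, which releases cysteine, had 6.815, 5.919 and 2.364 CPM in deficient libraries, against 2.238, 4.329 and 10.58 CPM in supplemented libraries, with a log2 fold change of -0.10 (SE 0.474) that was 0.39 without deficient replicate 3 and supplemented replicate 5. Cbs, which begins the pathway, was the member of this list with an unadjusted p under 0.05. It had 0.8475, 0.5518 and 3.444 CPM, against 0.06198, 0.3109 and 0.5289 CPM, and its log2 fold change of 2.29 (SE 0.885) was 0.90 without those libraries. The groups of Cbs did not overlap, at levels near the limit of counting.

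In the salvage of methylthioadenosine to methionine 3 of 7 genes lay above 0, with a median of -0.19 that was 0.00 without deficient replicate 3. Mtap, which starts the salvage and is often lost in human tumours, had 96.36, 104.4 and 57.47 CPM in deficient libraries, against 74.75, 104.3 and 146.4 CPM in supplemented libraries. Its log2 fold change was -0.30 (SE 0.253), Adi1 had -0.20 (SE 0.144) and Enoph1 0.29 (SE 0.210). Of 14 polyamine genes 5 lay above 0 and 9 below (median -0.10), and without both libraries 8 lay above 0 (median 0.10). Among them Sat1, which acetylates spermidine and spermine, had a log2 fold change of 0.23 (SE 0.196) and Oaz2, an antizyme, 0.18 (SE 0.192), which was -0.11 without deficient replicate 3.

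The serine and folate genes, which supply carbon units for remethylation, had 15 of 20 members below 0 and a median of -0.13, which was 0.03 without deficient replicate 3. Deficient replicate 3 was the lowest of the 9 libraries in 12 of the 20. Aldh1l1 had a log2 fold change of -0.35 (SE 0.237), Mthfd1l -0.35 (SE 0.247) and Tyms, thymidylate synthase, -0.37 (SE 0.266). Of 12 small-molecule methyltransferases 8 lay above 0 (median 0.07, 0.06 without both libraries, and -0.03 without deficient replicate 1). Inmt, an indole methyltransferase that is high in lung, was the member at an unadjusted p under 0.05, with 44.49, 1.354 and 529.5 CPM in deficient libraries, against 0.4959, 19.95 and 78.31 CPM in supplemented libraries. Its log2 fold change of 2.86 (SE 1.22) rested on deficient replicate 3 and was -0.45 without both libraries. Gamt, which makes creatine, had -0.51 (SE 0.336). DNA methylation genes had a median of -0.03 with 9 of 19 above 0, and -0.08 with 8 above 0 without both libraries. Dnmt3a, a de novo DNA methyltransferase, had 86.76, 80.21 and 77.74 CPM in deficient libraries, against 85.23, 105.4 and 127.6 CPM in supplemented libraries, a log2 fold change of -0.37 (SE 0.259). Tdg, which removes oxidised methylcytosine, had -0.40 (SE 0.188). Among 52 genes that set or remove histone and arginine methylation 29 lay above 0 and 23 below, with a median of 0.04, or 0.01 without both libraries. Nsd1, a histone H3K36 methyltransferase, had 55.12, 58.44 and 145.3 CPM, against 44.69, 54.55 and 66.11 CPM, so that its log2 fold change of 0.64 (SE 0.280) was 0.02 without deficient replicate 3 and supplemented replicate 5. Ezh1 had 0.32 (SE 0.184).

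The ATF4 amino acid response showed no common direction over all libraries. Of 37 tested genes 20 had a log2 fold change above 0 and 17 below, with a median of 0.00, and 1 stood at an unadjusted p under 0.05. That gene was Nupr1, a stress-induced chromatin protein, with 22.53, 20.97 and 23.84 CPM in deficient libraries, against 12.34, 17.11 and 19.57 CPM in supplemented libraries. Its groups did not overlap, and the log2 fold change was 0.45 (SE 0.190, edgeR adjusted p = 0.87). Asns, asparagine synthetase, had 134.9, 232.8 and 53.15 CPM, against 71.34, 102.4 and 188.1 CPM. The deficient libraries held both the highest and the lowest value of the 9, and the log2 fold change was 0.22 (SE 0.360), or -0.35 without deficient replicate 2. Trib3, a pseudokinase induced by ATF4, had 63.88, 62.3 and 18.1 CPM, against 18.99, 36.48 and 83.39 CPM, with a log2 fold change of 0.17 (SE 0.402) that was -0.08 without deficient replicate 1 and -0.05 without deficient replicate 2. Chac1, which degrades glutathione, had a log2 fold change of -0.71 (SE 0.375) and Vldlr 1.11 (SE 0.588), which was -0.01 without deficient replicate 3.

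Without deficient replicate 3 and supplemented replicate 5, 29 of these 37 genes lay above 0, with a median of 0.24, and 7 were at an unadjusted p under 0.05 with a higher level in deficient libraries. That fit set 2 deficient against 5 supplemented libraries, and the restricted and adequate libraries again entered its estimate of spread. There 688 of 16492 genes (4.17%) stood at an unadjusted p under 0.05 in either direction. Among them 350 (2.12% of those tested) were higher in deficient libraries, and edgeR's adjusted p of each gene named next was 0.996. The median was 0.20 without deficient replicate 3 alone, and without deficient replicate 2 alone it was -0.13. Deficient replicate 3 was the lowest of the 9 libraries in 17 of the 37 genes. Atf5, a transcription factor of the response, had 128, 156.1 and 52.48 CPM in deficient libraries, against 52.2, 84.68 and 128.6 CPM in supplemented libraries, and a log2 fold change of 0.81 without those libraries, beside 0.40 with all. Ddit3, the factor CHOP, had 88.21, 47.76 and 22.83 CPM, against 29.69, 41.33 and 58.79 CPM, with 0.64 beside 0.36, and -0.23 without deficient replicate 1. Mthfd2, a mitochondrial folate enzyme, had 92.09, 120.5 and 39.71 CPM, against 64.21, 72.52 and 97.44 CPM, with 0.52 beside 0.11, and -0.24 without deficient replicate 2. In the 34 promoters at hand of this list, 11 (32.4%) held the ATF4 element TGATGNAA on either strand within 250 bases before the start, beside 3.91% of 27025 promoters of all genes. This list and those searched below were drawn up by the known roles of their genes, and the promoters of all genes include genes not tested here. Such shares describe the lists and bear in no way on the diets.

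The cytosolic aminoacyl-tRNA synthetases, which charge transfer RNA and include several ATF4 targets, gave a like picture. With all libraries 7 of 23 lay above 0 (median -0.03), and without deficient replicate 3 and supplemented replicate 5 20 of 23 did (median 0.20). The median was 0.12 without deficient replicate 3 alone and -0.16 without deficient replicate 2 alone. Eprs, glutamyl-prolyl-tRNA synthetase, had 186.3, 293.7 and 110.6 CPM in deficient libraries, against 112.3, 141.6 and 197.2 CPM in supplemented libraries, with a log2 fold change of 0.40 (SE 0.247) that was -0.01 without deficient replicate 2. Cars, cysteinyl-tRNA synthetase, had -0.35 (SE 0.223), and 0.02 without both libraries. Among 32 amino acid transporters 14 lay above 0 and 18 below, with a median of -0.03, or -0.09 without both libraries and -0.15 without deficient replicate 3 alone. Slc6a17, a neutral amino acid transporter, had 126.8, 103.5 and 103.8 CPM, against 122.4, 166.7 and 308.3 CPM, a log2 fold change of -0.79 (SE 0.305) with 1 deficient library inside the supplemented range. Slc7a3, a carrier of cationic amino acids, had 0.6356, 7.826 and 0.9455 CPM, against 0.2166, 0.6265 and 1.557 CPM, so that its 2.23 (SE 0.892) was 0.25 without deficient replicate 2.

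Of 31 genes of amino acid sensing upstream of mTORC1 11 lay above 0 and 20 below (median -0.04, and -0.02 without both libraries). Rraga, a Rag GTPase, had a log2 fold change of -0.39 (SE 0.200) and Nprl2, a subunit of the inhibitory GATOR1 complex, 0.35 (SE 0.207). The glutathione and NRF2 genes were split 15 to 15 (median 0.01, 0.06 without both libraries, and 0.12 without supplemented replicate 5 alone). Prdx6, a peroxiredoxin that is abundant in lung, had 102.4, 93.66 and 331.3 CPM in deficient libraries, against 61.86, 87.71 and 120.9 CPM in supplemented libraries, and its 1.00 (SE 0.322) was 0.08 without deficient replicate 3 and supplemented replicate 5. Gstm1, a glutathione transferase, had 38.59, 25.78 and 108.0 CPM, against 31.14, 32.82 and 40.86 CPM, with 0.72 (SE 0.320), or -0.13 without both. Chac2, an enzyme of glutathione breakdown, had 0.9534, 1.003 and 0.3377 CPM, against 1.057, 1.783 and 4.773 CPM, with no overlap at low levels. Its log2 fold change of -1.49 (SE 0.656) was -0.75 without both libraries. Of 22 genes of the unfolded protein response of the endoplasmic reticulum 9 lay above 0 (median -0.01, 0.08 without both libraries, and -0.12 without deficient replicate 1).

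**Figure D3:**
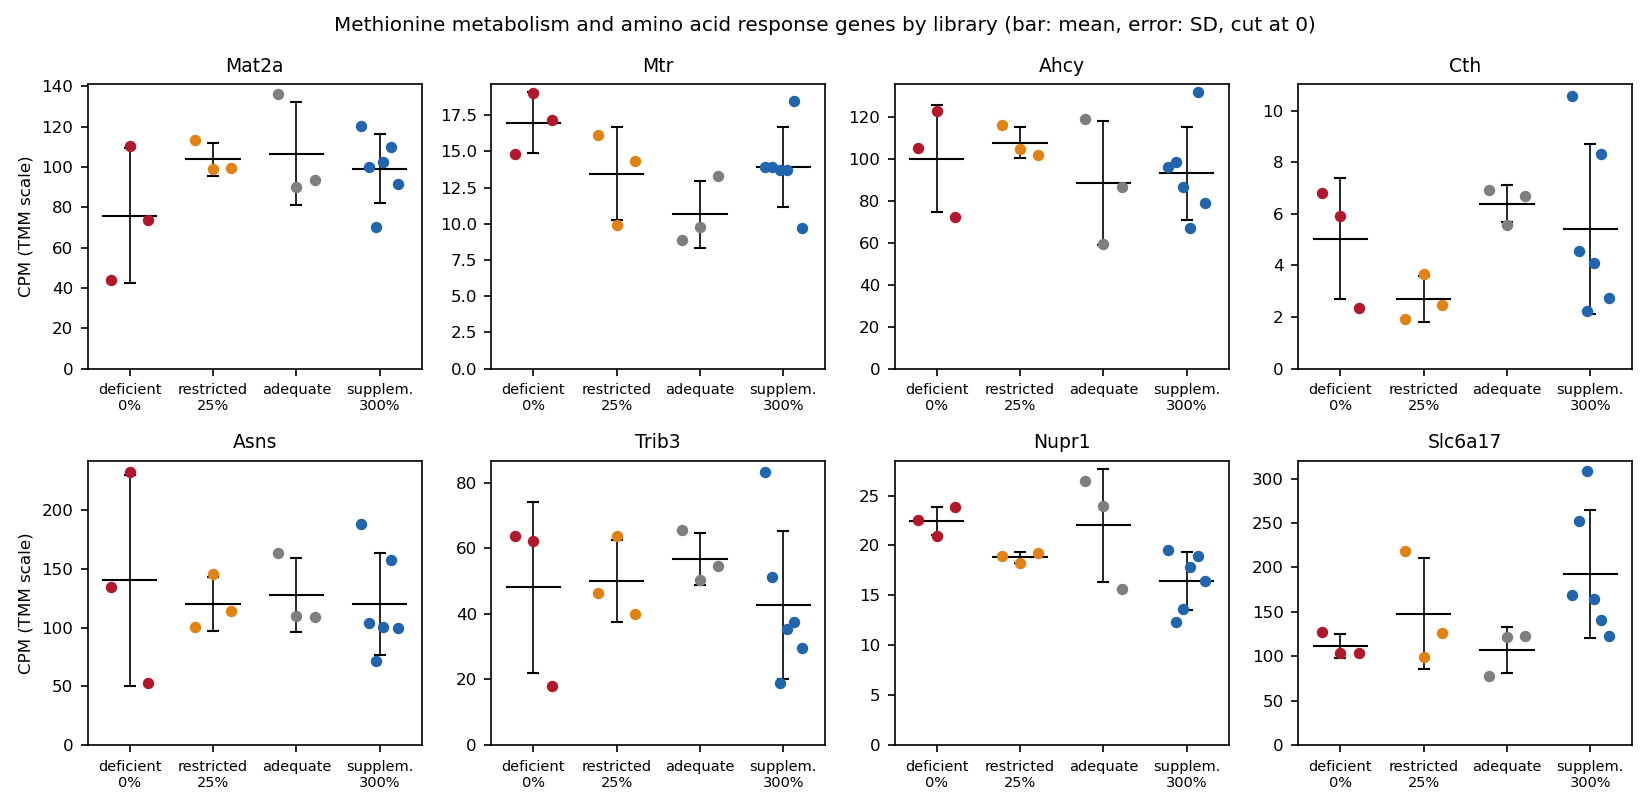
CPM of 8 genes of methionine metabolism, amino acid transport and the ATF4 response (vertical axis) in every library of the 4 diets (horizontal axis), with the mean and SD of each diet. The groups overlapped except for Nupr1, whose deficient libraries had 20.97 to 23.84 CPM and whose supplemented libraries had 12.34 to 19.57 CPM.

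Genes of mitosis lay below 0 nearly throughout. Of 53 tested G2/M genes 51 had a negative log2 fold change, where 47.5% of all genes did, with a median of -0.34 and 9 at an unadjusted p under 0.05 (background 1.76% on this side). The list level, the mean log2 CPM of its members, was 5.13, 5.19 and 4.51 in deficient libraries, against 5.09, 5.29 and 5.55 (lowest, median and highest) in supplemented libraries. Deficient replicates 1 and 2 lay inside the supplemented range and deficient replicate 3 below it. Deficient replicate 3 was the lowest of the 9 libraries in 48 of the 53 genes and supplemented replicate 5 the highest in 30. Without these 2 libraries the median was -0.08 with 38 of 53 below 0 and 1 at an unadjusted p under 0.05 on this side (background 2.05%), and without deficient replicate 3 alone it was -0.15.

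Espl1, the separase that cuts cohesin at anaphase, had 35.13, 33.46 and 38.43 CPM in deficient libraries, against 34.77, 56.03 and 61.16 CPM in supplemented libraries. Its groups overlapped through the lowest supplemented library, and its log2 fold change was -0.54 (SE 0.213), or -0.68 without deficient replicate 3 and supplemented replicate 5. Cdca2, a phosphatase subunit of mitotic exit, had 27.01, 27.49 and 16.68 CPM, against 25.63, 35.25 and 40.31 CPM, with -0.51 (SE 0.187) and -0.29. Kif20a, a kinesin of cell division, had 81.46, 70.63 and 52.95 CPM, against 77.97, 86.25 and 116.9 CPM, with -0.44 (SE 0.178) and -0.30. Mki67, the proliferation marker Ki-67, had 167.1, 202.9 and 157.7 CPM, against 166.4, 191.1 and 240.0 CPM, with -0.18 (SE 0.262).

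Many G2/M promoters carry the cell cycle homology element TTTGAA near the start, often with a CCAAT box. Promoter sequence was at hand for 44 of the 53 genes, and 15 of them (34.1%) held TTTGAA on either strand in the 250 bases before the start, beside 18.3% of 27025 promoters of all genes. CCAAT was in 30 (68.2%), beside 37.5%. The promoters of Espl1 (chr15:102296043-102296292, plus strand) and of the kinesin gene Kif22 (chr7:127042421-127042670, minus strand; log2 fold change -0.41, SE 0.224) are shown with the element in capitals; both genes were chosen after their values were seen. The sequences are from RefSeq on GRCm38.p6, 5' to 3' on the gene's strand. A match is a description of the letters and not a site of binding.

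Espl1: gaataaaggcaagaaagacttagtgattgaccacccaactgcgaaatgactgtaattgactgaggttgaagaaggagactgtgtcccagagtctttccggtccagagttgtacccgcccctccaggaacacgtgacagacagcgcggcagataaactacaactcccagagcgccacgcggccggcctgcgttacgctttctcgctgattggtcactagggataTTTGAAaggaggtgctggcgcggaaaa
Kif22: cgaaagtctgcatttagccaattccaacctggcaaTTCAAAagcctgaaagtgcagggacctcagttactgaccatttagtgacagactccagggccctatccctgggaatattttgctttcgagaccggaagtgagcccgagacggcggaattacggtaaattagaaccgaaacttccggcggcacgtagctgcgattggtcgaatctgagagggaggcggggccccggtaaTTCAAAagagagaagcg

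In Espl1 the element lies at position -27 relative to the annotated start, and in Kif22 it occurs at -215 and -17 in its reverse complement.

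The S phase genes followed the same libraries. Of 51 genes of G1/S and replication 47 lay below 0 with a median of -0.20, with 0 at an unadjusted p below 0.05. The median was 0.02 without deficient replicate 3, and without both libraries 0.07 with 32 of 51 above 0. Supplemented replicate 5 was the highest library in 42 of them and deficient replicate 3 the lowest in 38. Chaf1b, a histone chaperone of replication, had 42.8, 49.26 and 29.38 CPM in deficient libraries, against 41.52, 54.57 and 80.89 CPM in supplemented libraries, with -0.46 (SE 0.218), and E2f7, a repressor of E2F targets, -0.58 (SE 0.295). Of 16 tested replication-dependent histone genes 14 lay below 0 (median -0.12, and 0.10 without deficient replicate 3). Among 29 genes of the Myc and Max network and Myc targets 21 lay below 0 (median -0.13, and 0.02 without both libraries), and Myc, at -0.70, was the lowest of the 29. Mxd4, a Max partner that opposes Myc, had 129.9, 89.09 and 162.3 CPM, against 68.43, 90.03 and 110.0 CPM, with 0.46 (SE 0.195), and Nolc1, a nucleolar target of Myc, had -0.34 (SE 0.180). The promoters of this list held the E-box CACGTG in 6 of 25 (24%), beside 6.86% of all promoters.

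Among 29 p53 targets and apoptosis genes 17 lay above 0 (median 0.11, -0.07 without deficient replicate 2, and -0.01 without both libraries). Bbc3, the death gene PUMA, had 8.227, 10.89 and 11.35 CPM in deficient libraries, against 3.682, 6.824 and 9.917 CPM in supplemented libraries, with 0.59 (SE 0.259). Trp53inp1, a p53-induced protein of autophagy, had 55.23, 97.22 and 48.36 CPM, against 33.94, 45.49 and 61.55 CPM, with 0.53 (SE 0.233). Btg2, an antiproliferative p53 target, had 20.06, 21.37 and 80.1 CPM, against 6.198, 21.91 and 26.28 CPM, with 0.99 (SE 0.442), or -0.16 without both libraries. The groups of all these genes overlapped.

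Cholesterol genes lay lower with and without the libraries that stand apart. Of 26 tested genes of synthesis and uptake 22 lay below 0, with a median of -0.31 and 5 at an unadjusted p under 0.05 (background 1.76%). Without deficient replicate 3 and supplemented replicate 5 23 of 26 lay below 0, with a median of -0.23 and 1 of them at an unadjusted p under 0.05 (background 2.05%), where 51.7% of all genes lay below 0. Leaving out each library in turn gave medians from -0.55 (without deficient replicate 1) to -0.18 (without deficient replicate 2). The list level was 5.57, 5.20 and 5.02 in deficient libraries, against 5.37, 5.58 and 5.65 in supplemented libraries, so that deficient replicate 1 lay inside the supplemented range and the other deficient libraries below it. Restricted libraries had a median level of 5.81 and adequate libraries 5.33.

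Stard4, a carrier of cholesterol between membranes, had 23.31, 22.17 and 24.65 CPM in deficient libraries, against 21.57, 35.58 and 36.45 CPM in supplemented libraries. Its lowest supplemented value was that of supplemented replicate 5, and the others lay at 32.93 CPM or more, above every deficient library. Its log2 fold change was -0.50 (SE 0.179), or -0.63 without deficient replicate 3 and supplemented replicate 5. Dhcr7, the last enzyme of cholesterol synthesis, had 45.23, 45.75 and 33.63 CPM, against 50.39, 59.93 and 62.13 CPM, with no overlap and a log2 fold change of -0.47 (SE 0.202). Fdft1, squalene synthase, had 48.02, 28.84 and 29.45 CPM, against 40.87, 47.04 and 71.4 CPM, with -0.51 (SE 0.220). Of 18 promoters of this list 15 (83.3%) held CCAAT, beside 37.5% of all promoters.

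Of 16 fatty acid synthesis genes 11 lay below 0 (median -0.09, and -0.21 with 13 below without both libraries). Elovl6, a fatty acid elongase, had a log2 fold change of -0.38 (SE 0.189). Acss2, which makes acetyl-CoA from acetate, ran the other way with 17.41, 16.3 and 16.34 CPM in deficient libraries, against 10.62, 13.4 and 14.8 CPM in supplemented libraries, with no overlap and 0.36 (SE 0.163). Among 40 hypoxia and glycolysis genes 27 lay below 0 (median -0.12, and 0.09 without deficient replicate 3), with Pfkm, a phosphofructokinase, at 32.63, 16.05 and 21.61 CPM, against 31.1, 32.76 and 36.69 CPM, and -0.51 (SE 0.189). Epas1, the hypoxia factor HIF-2 alpha, which is high in lung endothelium, had 90.78, 24.68 and 1617 CPM, against 22.25, 118.0 and 253.9 CPM, and its 2.26 (SE 0.861) was -1.28 without both libraries. Adm, the peptide adrenomedullin, had 1.801, 9.381 and 6.484 CPM, against 0.4339, 2.478 and 4.765 CPM, with 1.13 (SE 0.599), or 0.84 without both.

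The values of the RNAs of the mitochondrial genome depended on which libraries were set against each other. All 13 were tested, and 11 lay below 0 with a median of -0.17 and 0 at an unadjusted p under 0.05. The list level was 7.11, 7.20 and 8.10 in deficient libraries, against 6.38, 7.80 and 8.13 (lowest, median and highest) in supplemented libraries. Deficient replicate 3 lay near the top of the supplemented range, and supplemented replicate 5 was the lowest of the 9 libraries in all 13 genes. Without these 2 libraries 12 of 13 lay below 0 with a median of -0.84, and 9 stood at an unadjusted p under 0.05, where 338 of 16492 genes did on that side (2.05%), each with an adjusted p of 0.996. Without deficient replicate 2 the median was 0.02 instead.

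mt-Nd6, a complex I subunit and the gene that is read from the light strand, had 10.56, 10.68 and 35.66 CPM in deficient libraries, against 9.855 CPM in supplemented replicate 5 and 19.57, 20.67 and 33.11 CPM (lowest, median and highest) in the other supplemented libraries. Its log2 fold change was -0.18 (SE 0.385) with all libraries and -1.16 (SE 0.261, unadjusted p = 0.000484 in edgeR's test) without deficient replicate 3 and supplemented replicate 5. mt-Nd2, another complex I subunit, had 88.42, 78.66 and 219.4 CPM, against 44.63 CPM in supplemented replicate 5 and 134.4, 161.7 and 204.0 CPM in the others, with -0.17 (SE 0.393) and -0.98 (SE 0.247). mt-Atp6, an ATP synthase subunit, had 201.1, 267.8 and 373.0 CPM, against 146.0, 396.2 and 478.1 CPM, with -0.39 (SE 0.335) and -0.81. mt-Co3, a cytochrome oxidase subunit, did not share the pattern, at 2006, 2131 and 2125 CPM, against 908.4, 1907 and 2039 CPM, with 0.26 (SE 0.213) and 0.11. The summed share of counts in mitochondrially encoded genes was 0.753% ± 0.206 (SD, n = 3) in deficient and 0.767% ± 0.224 (SD, n = 6) in supplemented libraries (exact permutation test, two-sided, p = 0.881, adjusted over 3 shares p = 0.881; the smallest possible p is 0.0238).

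Nuclear genes of the respiratory chain lay below 0 in 44 of 55 (median -0.11, and 0.01 without deficient replicate 3, the lowest library in 44 of them). Uqcrc2, a core subunit of complex III, had 75.6, 80.96 and 65.11 CPM in deficient libraries, against 81.37, 92.27 and 110.6 CPM in supplemented libraries, with no overlap and -0.32 (SE 0.168). Ndufa7, of complex I, had 83.69, 89.64 and 78.01 CPM, against 50.69, 67.11 and 69.61 CPM, with no overlap in the other direction and 0.42 (SE 0.198). Cytosolic ribosomal protein genes were split 22 to 21 with a median of 0.00. Without deficient replicate 3 and supplemented replicate 5 40 of 43 lay above 0 with a median of 0.24, of which 6 stood at an unadjusted p under 0.05 (background 2.12%), whereas without deficient replicate 2 the median was -0.19. Rps6, a subunit that is phosphorylated in mTOR signalling, had 210.1, 304.6 and 137.0 CPM, against 118.0, 145.9 and 220.4 CPM, with 0.48 (SE 0.224) and 0.86 without both libraries. Rps16 went the other way, with 63.28, 53.07 and 33.7 CPM, against 59.56, 77.34 and 112.4 CPM, and -0.67 (SE 0.236). Ribosomal protein genes have many near-identical copies in the genome, so single values are uncertain.

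Pigment genes lay a little lower. Of 26 tested genes of melanin synthesis and the melanosome 22 lay below 0 with a median of -0.20, with 0 at an unadjusted p below 0.05. The median was -0.11 without deficient replicate 3, and without both libraries it was -0.08 with 15 of 26 below 0. Tyr, the enzyme that begins melanin synthesis, had 669.6, 557.9 and 361.6 CPM in deficient libraries, against 503.2, 592.6 and 618.5 CPM in supplemented libraries, and its -0.13 (SE 0.195) was 0.08 without deficient replicate 3. Mlana, the MART-1 antigen, had 609.1, 482.1 and 424.5 CPM, against 565.3, 642.3 and 940.4 CPM, with -0.42 (SE 0.209). Oca2, a melanosome chloride channel, had 49.96, 19.71 and 27.83 CPM, against 38.87, 49.35 and 58.33 CPM, with -0.61 (SE 0.301), and Slc24a5, a cation exchanger of the same organelle, -0.39 (SE 0.240).

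Of 15 melanocyte lineage regulators 9 lay above 0 (median 0.01, 0.03 without both libraries, and -0.12 without deficient replicate 2). Ednrb, the endothelin receptor of melanoblasts, which vessels also make, was the member at an unadjusted p under 0.05. It had 5.968, 5.719 and 45.25 CPM in deficient libraries, against 5.145, 7.485 and 10.26 CPM in supplemented libraries, with 1.29 (SE 0.584), or -0.50 without both. Sox10, which holds the lineage, had a log2 fold change of -0.28 (SE 0.213). Among 21 genes linked to dedifferentiated and invasive melanoma 17 lay above 0 with a median of 0.30, which was 0.00 without deficient replicate 3. Egfr, the epidermal growth factor receptor, had 2.648, 6.471 and 27.56 CPM, against 3.256, 4.978 and 5.331 CPM, with 1.42 (SE 0.580), or 0.05 without both libraries. Axl, a receptor kinase of that state, had 230.5, 187.7 and 195.1 CPM in deficient libraries, against 73.39, 111.6 and 205.9 CPM in supplemented libraries, with 0.63 (SE 0.306), or 0.54 without both libraries. Ddr2, a collagen receptor kinase, had 130.8, 138.1 and 132.6 CPM, against 86.22, 109.7 and 122.7 CPM, with no overlap and 0.29 (SE 0.142, edgeR adjusted p = 0.87).

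Genes of antigen presentation lay above 0, and part of that height went with deficient replicate 3. All 10 MHC class II genes lay above 0, where 52.5% of all genes did, with a median of 1.12 and 4 at an unadjusted p under 0.05 (background 3.69%). Deficient replicate 3 was the highest of the 9 libraries in all 10. Without it the median was 0.42, and without it and supplemented replicate 5 0.30 with 9 of 10 above 0 and 0 at an unadjusted p under 0.05 (background 2.12%). The macrophage and monocyte list, which marks cells that carry class II, had levels of 4.19, 3.62 and 4.96 in deficient libraries, against 3.17, 3.77 and 4.09 in supplemented libraries, and its part in the class II values was not tested. H2-Eb1, a class II beta chain, had 62.68, 33.81 and 107.6 CPM, against 10.75, 30.3 and 57.97 CPM, with 1.10 (SE 0.497), or 0.52 without both libraries. H2-DMb1, which helps load peptide, had 18.29, 16.7 and 31.41 CPM, against 8.638, 13.14 and 16.07 CPM, with no overlap and 0.79 (SE 0.297), or 0.45 without both. H2-DMa, its partner chain, had 1.18 (SE 0.482), or 0.24.

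MHC class I genes had a median of 0.34 with 15 of 18 above 0 and 5 at an unadjusted p under 0.05 (background 3.69%). Without both libraries the median was 0.18 with 14 of 18 above 0 and 1 at such a p (background 2.12%). H2-D1, a classical class I heavy chain, had 1113, 878.3 and 1013 CPM in deficient libraries, against 567.9, 666.2 and 892.5 CPM in supplemented libraries. A single deficient library lay just inside the supplemented range, and the log2 fold change was 0.54 (SE 0.210), or 0.51 without both libraries. Erap1, which trims peptides for class I, had 30.51, 29.15 and 50.25 CPM, against 18.1, 21.95 and 28.46 CPM, with no overlap and 0.71 (SE 0.207), or 0.37. H2-Q4, a nonclassical class I gene, had 0.85 (SE 0.379), or 0.34. Genes of the H2 family share sequence, so how reads were divided among them is uncertain.

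The interferon-inducible GTPases, which attack membranes around microbes, lay above 0 in 14 of 14 tested genes of 16 listed, with a median of 0.58, and 0.40 without deficient replicate 3. Without both libraries 12 of 14 lay above 0 with a median of 0.27. The list level was 4.92, 4.29 and 5.04 in deficient libraries, against 3.46, 4.29 and 4.60 in supplemented libraries. Gbp2 had 62.36, 59.39 and 68.62 CPM, against 26.62, 37.33 and 54.88 CPM. Its groups did not overlap, and its log2 fold change was 0.71 (SE 0.323, edgeR adjusted p = 0.87), or 0.66 without both libraries. Restricted libraries had 34.5, 22.85 and 71.15 CPM of Gbp2 and adequate libraries 41.39, 23.82 and 15.78 CPM. Tgtp2 had 57.98, 37.12 and 49.17 CPM, against 16.84, 32.42 and 43.18 CPM, with 0.56 (SE 0.323), and has a near-identical neighbour in Tgtp1, so its value is uncertain.

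Interferon-stimulated promoters often carry the interferon-stimulated response element, searched here as a pair of GAAA repeats with any 2 bases between them, on both strands. It was present in 8 of 9 promoters at hand of this list (88.9%), in 10 of 30 of the type I interferon list (33.3%) and in 2 of 15 of the class I list (13.3%), beside 3.46% of 27025 promoters of all genes. The promoters of Gbp2 (chr3:142620413-142620662, plus strand) and Tgtp2 (chr11:49064213-49064462, minus strand) are shown on the gene's strand, from RefSeq on GRCm38.p6, with the element in capitals.

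Gbp2: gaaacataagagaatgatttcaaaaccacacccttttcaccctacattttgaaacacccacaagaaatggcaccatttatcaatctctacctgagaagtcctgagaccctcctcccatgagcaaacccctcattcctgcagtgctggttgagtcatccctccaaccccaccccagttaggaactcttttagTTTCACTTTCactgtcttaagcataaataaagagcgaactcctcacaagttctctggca
Tgtp2: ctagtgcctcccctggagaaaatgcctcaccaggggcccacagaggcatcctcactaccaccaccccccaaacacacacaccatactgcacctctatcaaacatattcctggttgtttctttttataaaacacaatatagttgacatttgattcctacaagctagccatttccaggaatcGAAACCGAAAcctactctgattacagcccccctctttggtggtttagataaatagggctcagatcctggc

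The element begins at -59 in Gbp2, in its reverse complement, and at -70 in Tgtp2, relative to the annotated start.

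The type I interferon list lay above 0 in 35 of 42 genes, with a median of 0.18 and 0 at an unadjusted p under 0.05. Without both libraries it was again 35 of 42, with a median of 0.23, where 48.2% of all genes lay above 0, and without deficient replicate 1 the median was 0.03. Ifi44 had 23.34, 26.19 and 21.48 CPM in deficient libraries, against 9.344, 12.4 and 21.74 CPM in supplemented libraries, with 0.72 (SE 0.421), or 0.75 without both. Zbp1, which binds Z-form DNA and RNA, had 19.21, 14.7 and 15.67 CPM, against 6.875, 9.496 and 15.68 CPM, with 0.69 (SE 0.424), or 0.67. Irf1, a transcription factor of the response, had 25.64, 22.92 and 50.65 CPM, against 15.81, 21.77 and 32.19 CPM, with 0.57 (SE 0.304), or 0.05.

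Chemokine genes lay above 0 in 22 of 26 tested of 30 listed, with a median of 0.65 and 4 at an unadjusted p under 0.05 (background 3.69%). Without both libraries 22 of 26 lay above 0 with a median of 0.42 and 1 at such a p (background 2.12%), and without deficient replicate 3 alone the median was 0.26. Cxcl16, the ligand of the T cell receptor CXCR6, had 24.26, 15.45 and 38.97 CPM in deficient libraries, against 11.78, 14.66 and 22.21 CPM in supplemented libraries, with 0.75 (SE 0.330). Of 11 immune checkpoint genes tested 8 lay above 0 (median 0.49, and 0.07 without deficient replicate 3). Cd80, a ligand of CD28 and CTLA-4, had 1.871, 1.956 and 2.161 CPM, against 0.2166, 0.6816 and 1.426 CPM, with no overlap and 1.49 (SE 0.621), or 1.74 without both. Its relative Cd86 had 1.16 (SE 0.562), or 0.92. The lymphocyte list had a median of 1.14 with 27 of 27 above 0, and 0.12 with 15 of 26 without both libraries. Of its defining genes, Cd3e and Ncr1 were at 0.4237, 0 and 2.094 CPM and at 0.1766, 0 and 1.756 CPM in deficient libraries, against at most 0.622 and 0.7438 CPM in supplemented libraries. Cd79a, the remaining defining gene, was highest in deficient replicate 2. It had 2.013, 4.916 and 3.58 CPM, against 0.2644, 1.628 and 3.899 CPM (lowest, median and highest) in supplemented libraries.

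Macrophage and monocyte genes lay above 0 in 27 of 30 with a median of 0.62, and in 19 of 30 with a median of 0.20 without both libraries. Mertk, a receptor for dying cells, had 17.48, 15.8 and 28.84 CPM in deficient libraries, against 7.686, 13.17 and 15.55 CPM in supplemented libraries, with no overlap and 0.75 (SE 0.256), or 0.33 without both. Tyrobp and Fcer1g, signalling adaptors of myeloid receptors, had 0.91 (SE 0.333) and 0.65 (SE 0.254), or 0.19 and 0.36. The fibroblast and pericyte list had 24 of 35 above 0 with a median of 0.33, and 22 of 35 with 0.07 without both. Dcn, the matrix proteoglycan decorin, had 11.76, 14.25 and 32.08 CPM, against 2.888, 5.685 and 13.71 CPM, with 1.48 (SE 0.524), or 1.07, and Loxl1, a cross-linking enzyme, 0.85 (SE 0.320), or 0.15.

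Lists of lung tissue depended on deficient replicate 3. The endothelial list lay above 0 in 28 of 28 genes with a median of 1.3 and 14 at an unadjusted p under 0.05 (background 3.69%), and its median was -0.29 without deficient replicate 3. Without both libraries 26 of 28 lay below 0 (median -0.41), with 0 higher and 3 lower at an unadjusted p under 0.05 (background 2.12% and 2.05%). Icam2, an adhesion molecule of vessels, had 13.35, 8.678 and 38.29 CPM in deficient libraries, against 2.417, 6.852 and 14.48 CPM in supplemented libraries, with 1.45 (SE 0.474), or 0.41. The medians with all libraries were 1.49 for alveolar type 2 and 1.46 for alveolar type 1 (16 of 16 above 0 in each), 2.44 for airway epithelium (14 of 14) and 0.85 for mesothelium (10 of 10). These were, without deficient replicate 3, -0.57, -0.49, -0.78 and -0.46. Red cell and platelet genes had 0.88 with 9 of 10 above 0, and -1.11 without deficient replicate 3. Class 3 semaphorins and their receptors, to which Sema3c belongs, had 0.76 with 12 of 14 above 0, and -0.02 without deficient replicate 3.

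Of muscle genes, 9 of 17 listed skeletal genes were tested and all lay below 0 with a median of -5.05, which was -0.23 without supplemented replicate 5. In cardiac muscle 9 of 13 tested genes lay below 0 with a median of -1.79, and 3 were lower at an unadjusted p under 0.05 (background 1.76%). Without both libraries 12 of 13 lay below 0 with a median of -4.25, and 7 were lower at such a p (background 2.05%). The summed level of the cardiac list was 14.51, 29.5 and 33.5 CPM in deficient libraries, against 22.58, 38.4 and 73.76 CPM in supplemented libraries, so that most members were near 0. Glucocorticoid-induced genes had 11 of 19 above 0 (median 0.15, and -0.14 without deficient replicate 3). Klf9, a glucocorticoid target, had 24.47, 31.4 and 68.55 CPM, against 18.91, 25.12 and 30.73 CPM, with 0.73 (SE 0.286), or 0.18 without both libraries. Sgk1, a kinase induced by the hormone, had 19.39, 22.47 and 73.55 CPM, against 15, 20.77 and 26.75 CPM, with 0.85 (SE 0.323), or -0.11 without both, and Fkbp5, a chaperone that dampens the receptor, had -0.59 (SE 0.298). Clock genes had 13 of 21 above 0 (median 0.11, and -0.16 without deficient replicate 3). Among them Nr1d1, the repressor REV-ERB alpha, had 11.58, 8.528 and 74.09 CPM, against 4.525, 12.35 and 21.59 CPM, with 1.37 (SE 0.619), or -0.43 without both libraries. Cold-inducible RNA-binding genes had 2 of 5 above 0 (median -0.21, and -0.09 without both libraries). Defining genes of other organs were near 0: Alb and Adipoq, of liver and fat, had 0 CPM in all 3 deficient libraries and at most 0.361 and 0.1763 CPM in supplemented libraries.

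**Figure D4:**
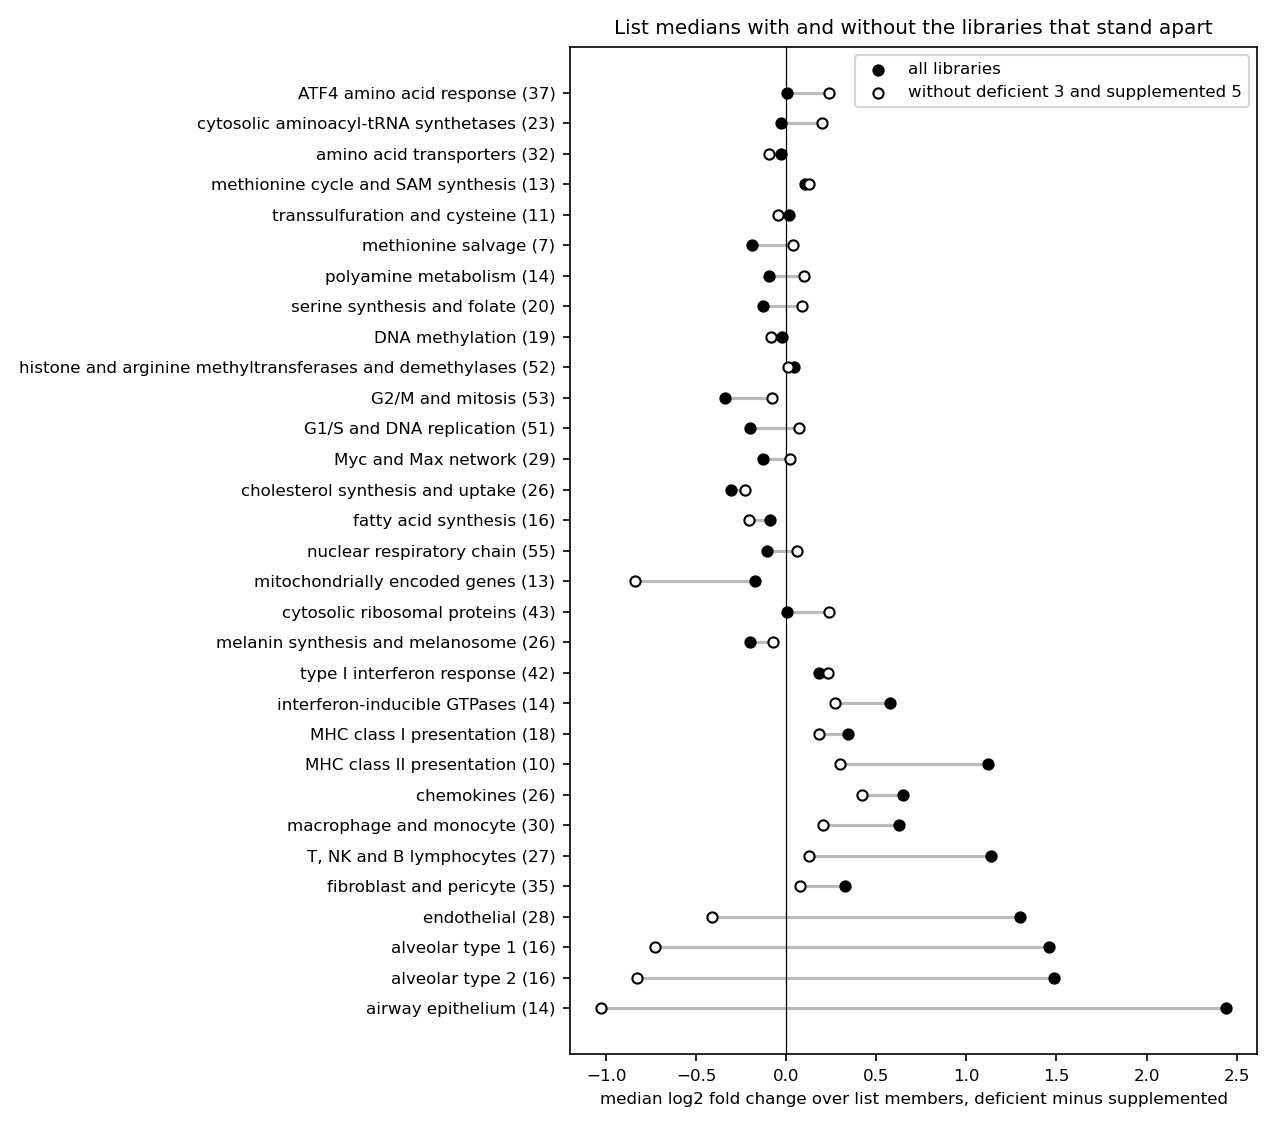
Median log2 fold change (deficient minus supplemented, horizontal axis) of 31 gene lists, with the number of tested members in brackets, for all libraries (filled) and without deficient replicate 3 and supplemented replicate 5 (open). Cholesterol synthesis stayed at -0.31 and -0.23 and chemokines at 0.65 and 0.42, while the lung and endothelial lists lay above 0 with all libraries and below 0 without these 2, and the ATF4 list lay at 0.00 and 0.24.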

How the data were processed

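Total RNA of metastases was depleted of ribosomal RNA with Ribo-Zero Gold and made into TruSeq Stranded Total RNA libraries, per the labels' protocols. Bowtie2 2.2.9, RSEM 1.30, edgeR and the build NCBIM37 are named in the submitters' processing notes; for the annotation release, the strand setting and any filter on reads, nothing is given in the sources used here. The authors deposited RSEM expected counts and TPM per gene for each library, per the file headers. Of 37620 gene IDs 32897 had a symbol. TPM served only to compare levels between genes and to judge transcript length.

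Expected counts were rounded to whole numbers and tested with edgeR 4.0.16 (R 4.3.3): the quasi-likelihood test on all 15 libraries with a mean per diet, TMM scaling, edgeR's own filter on low counts and Benjamini-Hochberg adjustment over 16001 genes. CPM are on the TMM scale. The standard error is that of the log2 fold change, worked back from its size and the statistic of edgeR's test. List levels are means of log2 CPM. Alternatives were DESeq2 1.42.0, limma-voom (limma 3.58.1), no filter, a lung-content covariate, each library left out, and deficient replicate 3 and supplemented replicate 5 left out together. The fit was tested on simulated data. Shares of counts were compared with scipy 1.17.1 by the exact permutation test.

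Depth was 13107679 to 29994264 counts per library. The 12 genes higher and the 12 lower with the smallest p, a mean log2 CPM of at least 1 and a symbol were taken (1 of them is not reported here), with up to 3 members of each list with the smallest p and a few fixed genes; other genes named were chosen after their values were seen. The comparison and its 53 lists (1232 of 1249 entries matched) were chosen with earlier results of these data known.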

Additional observations from a re-analysis of the deposited data

Results flagged for a closer look

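Among the 6 supplemented libraries, 1 library stood apart from the other 5 in 20 of 182 values looked at (the named genes, the list levels and the shares of counts), by Dixon's ratio of the gap to the range. For independent and normally spread values chance would flag about 1 in 20 groups. Here some values belong together, such as a gene and its list, and some are of low CPM. The 20 of 182 are therefore not to be measured against that rate. The deficient group, with 3 libraries, was not looked at in this way.

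Supplemented replicate 5 was the library in 14 of the 20. It held the lowest value of Stard4 (21.57 CPM, the next 32.93), Btg2 (6.198 CPM, the next 20.45), mt-Co3 (908.4 CPM, the next 1687) and mt-Atp8 (10.79 CPM, the next 31.75), and the highest of Chac2 (4.773 CPM, the next 2.415) and Mlana (940.4 CPM, the next 692.7). Its list level in mean log2 CPM was the lowest for mitochondrially encoded genes (6.379), small-molecule methyltransferases (2.938), circadian clock genes (3.425), alveolar type 2 genes (-0.5794) and alveolar type 1 genes (0.9928). It was the highest for cytosolic ribosomal proteins (7.987) and skeletal muscle (6.128), and skeletal muscle genes took 0.229% of its counts, where the next supplemented library had 0.00261%.

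Supplemented replicate 3 had the highest Scamp3 (57.47 CPM, the next 44.13). Supplemented replicate 6 had the highest Ogn (12.28 CPM, the next 5.671), Inmt (78.31 CPM, the next 26.35) and Cd86 (1.645 CPM, the next 0.8341). Supplemented replicate 2 had the highest Slc7a3 (1.557 CPM, the next 0.7052) and the lowest level of the cholesterol list (5.369, the next 5.56).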

How the results depend on the processing

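None of the 18 alternatives called a gene by adjusted p under 0.05; the smallest adjusted p was 0.0833, under DESeq2. The count at an unadjusted p under 0.05, 872, was 1398 with no filter on low counts, 538 with the lung covariate and 399 to 1483 with 1 library left out. It was 673 with the deficient and supplemented libraries alone, and 987 without adequate replicate 1. No paired analysis was possible because the labels give the libraries no replicate numbers: those used here follow the order of deposit within a diet and only name a library.

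Of 1006 list medians under alternatives 970 moved by less than the spread between replicates, the SD of the list level within the diets. Deficient replicate 3 and supplemented replicate 5 are part of that spread and widen it. Without them the alveolar type 2 median went from 1.49 to -0.83, which still counted as within its spread of 2.43. The 970 are therefore not read as stability. Without deficient replicate 3 and supplemented replicate 5 together, the medians beyond it were 0.10 for polyamine metabolism, -0.080 for G2/M, 0.019 for the Myc network, -0.84 for mitochondrially encoded genes, -0.0076 for p53 targets, -0.077 for melanin, -0.73 for alveolar type 1, -1.03 for airway, -0.41 for endothelial, 0.12 for lymphocyte, -1.27 for neutrophil, -1.29 for erythroid, -0.81 for skeletal muscle, -4.25 for cardiac muscle, 0.046 for checkpoint and 0.0067 for semaphorin genes. With 1 library left out, they ran between -0.30 and -0.060 for the Myc network, -0.55 and -0.18 for cholesterol, -0.069 and 0.19 for p53 targets, -0.49 and 1.99 for alveolar type 1, -0.78 and 3.01 for airway, -0.29 and 1.71 for endothelial, -1.21 and 0.60 for neutrophil, -1.11 and 1.34 for erythroid, -5.31 and -0.23 for skeletal muscle, -4.00 and -1.34 for cardiac muscle, 0.066 and 0.78 for checkpoint, 0.26 and 0.79 for chemokine and -0.019 and 1.05 for semaphorin genes. The lung covariate gave -0.027 for airway, -1.02 for skeletal muscle and 0.13 for checkpoint genes, and limma-voom -0.72 for skeletal muscle. The mean in place of the median gave 0.36 for the methionine cycle, 0.51 for transsulfuration and 0.24 for transporters. Members of these lists ran from -0.53 to 3.73, from -0.22 to 2.29 and from -0.79 to 2.80, so single high members weigh on the means. The 3.73 is that of Bhmt, with 0.2119 CPM in deficient replicate 1 and 0 CPM in every other deficient and supplemented library. The 2.80 is that of Slc1a3, which was -0.50 without both libraries.

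Of 126 named genes 103 kept their sign under the alternatives run and 23 did not. Without both libraries the log2 fold change was 0.077 for Tyr, -0.88 for Sftpc, 0.39 for Cth, 0.035 for Mtap, -0.14 for Oaz2, 0.025 for Cars, -0.45 for Inmt, -1.28 for Epas1, -0.50 for Ednrb, -0.13 for Gstm1, -0.16 for Btg2, -0.11 for Sgk1 and -0.43 for Nr1d1. The lung covariate gave -0.16 for Sftpc and 0.18 for Cth, and limma-voom 0.065 for Cth and -0.014 for Mthfd2. That covariate is built from the alveolar lists, to which Sftpc belongs, so nothing is read from its value for Sftpc. With 1 library left out, values ran between -0.35 and 0.61 for Asns, -0.084 and 0.56 for Trib3, -0.34 and 0.083 for Tyr, -0.61 and 2.17 for Sftpc, -0.068 and 0.29 for Ahcy, -0.38 and 0.23 for Cth, -0.11 and 0.43 for Oaz2, -0.0080 and 1.57 for Vldlr, -0.0084 and 0.69 for Eprs, -0.23 and 0.72 for Ddit3, -0.24 and 0.45 for Mthfd2, -0.80 and 0.079 for mt-Nd2, -1.01 and 0.094 for mt-Nd6, -0.19 and 3.59 for Inmt, -1.06 and 2.82 for Epas1, -0.40 and 1.71 for Ednrb, -0.11 and 1.06 for Gstm1, -0.026 and 1.15 for Sgk1, -0.26 and 1.81 for Nr1d1, and -0.0019 and 1.87 for Egfr. The cause of these shifts was not tested.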
